A study of Mus musculus with 4 samples.

Results

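The class II genes of the major histocompatibility complex (MHC) and the invariant chain gene Cd74 were followed in CD4 T cells that had spent 14 days in a lymphocyte-deficient host. The members were chosen by name: H2-Aa, H2-Ab1, H2-Eb1 and Cd74, 4 of the 32285 genes in the files. H2-Aa encodes the alpha chain and H2-Ab1 the beta chain of the I-A molecule, H2-Eb1 encodes the beta chain of I-E, and Cd74 encodes the chain that occupies the groove of new class II molecules and escorts them to the compartment where peptide is loaded. Dendritic cells, B cells and activated macrophages make all of these constitutively or on induction, and mouse T cells are generally taken to make little class II. The transactivator Ciita drives the whole group. Cd74 also reaches the cell surface without class II, where it binds the cytokine Mif.

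The donors were B6.H2g7 mice (strain B6.NOD-(D17Mit21-D17Mit10)/LtJ, aged 6 to 8 weeks), which carry the H2g7 class II haplotype of NOD mice on a C57BL/6 background. CD4 T cells were purified on magnetic columns from the spleens of 2 donors, and 5000000 were given to each of 2 separate NOD.Rag1null hosts. After 14 days the spleens were taken, and live cells positive for CD4 and TCR beta were sorted for 1 gene expression library and 1 receptor library per host (5′ chemistry). Both hosts had the same treatment, so the comparisons run between classes of cells within each mouse. The labels do not say whether the cells of each donor were kept apart, so the 2 hosts may not stand for separate donors. Fits with the mouse as a block take out level differences between the hosts. Their p-values rest on any mismatch of the 2 hosts in the size of a change, and on spread borrowed from other genes. They speak for these 2 hosts only. Rag1-null hosts have no T or B cells of their own but keep macrophages and dendritic cells. Donor and host share H2g7, so class II transcripts cannot be assigned to donor or host, and H2g7 lacks a working alpha chain for I-E.

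The libraries held 9996 and 9733 barcodes and 70092822 and 75940181 unique molecular identifiers (UMIs, each a counted transcript) in mouse 1 and mouse 2. Kept cells had at least 500 genes, at most 10% mitochondrial UMIs and exactly 1 productive TRB contig. They numbered 5993 and 6332, and 2901 and 2405 barcodes passed the same filters without any contig. Levels are in CPM, the UMIs of a gene scaled to the total UMIs of the class of barcodes, not divided by gene length because 5′ libraries count 1 end of each transcript. The T cell genes Cd3e and Cd3g led the T cell list in kept cells, at 1542 and 1571 CPM in mouse 1 and 1649 and 1622 in mouse 2. The libraries shared 166 barcodes, 58 of them among kept cells. Of 3166 and 3316 clonotypes of kept cells (same TRBV, TRBJ and TRB CDR3 nucleotides), 63 were found in both mice. No doublet caller was run.

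The 3 class II genes lie side by side on chromosome 17 (mm10): H2-Ab1 (ENSMUSG00000073421) at chr17:34257689-34269419 on the plus strand, H2-Aa (ENSMUSG00000036594) at chr17:34282744-34287823 on the minus strand and H2-Eb1 (ENSMUSG00000060586) at chr17:34305867-34316674 on the plus strand. H2-Eb1 overlaps Gm20513 on the opposite strand. Whether counting used strand, and how g7 reads were recovered on the b haplotype of the reference, is not given in the sources used here and was not tested.

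Class II promoters are known for a shared X box and Y box, bound by the RFX and NF-Y complexes that recruit Ciita. Of the 3 class II genes, 2 matched an entry of the RefSeq promoter table (GRCm38.p6), H2-Aa and H2-Eb1, and H2-Ab1 did not. The 120 bases before the start are shown for the matched genes, as the stretch in which these boxes are known to lie. Capitals mark GCAACT and TGATTGG, letters chosen after the sequences were seen.
H2-Aa, chr17:34287824-34287943, minus strand: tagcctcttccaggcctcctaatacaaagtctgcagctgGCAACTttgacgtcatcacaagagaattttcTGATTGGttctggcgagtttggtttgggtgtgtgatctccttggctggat
H2-Eb1, chr17:34305747-34305866, plus strand: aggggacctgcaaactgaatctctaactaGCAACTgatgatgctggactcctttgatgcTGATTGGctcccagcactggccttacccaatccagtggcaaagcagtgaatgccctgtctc
The 2 words stood 25 bases apart in H2-Aa and 24 in H2-Eb1. In the 250 bases before the start, on either strand, GCAACT occurred in 9.01% and TGATTGG in 7.23% of 32851 promoters, and the pair 10 to 40 bases apart in 18 (0.0548%). H2-Eb2 also held the pair, and the other 8 genes of the class II list with an entry did not. A match describes letters only.

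Barcodes without a receptor contig were first set beside kept cells. H2-Aa stood at 183 and 65.0 CPM (mouse 1 and mouse 2) without a contig and at 13.5 and 16.1 in kept cells. H2-Ab1 stood at 117.5 and 47.2 against 7.93 and 10.8. H2-Eb1 stood at 143 and 54.2 against 13.9 and 14.1. For each class II gene both barcodes-without-contig values lay above both kept values, with mouse 1 the higher. The share of all genes that did so is not given here. Cd74 differed less, at 540 and 308 CPM against 229 and 224.

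Across all genes (edgeR quasi-likelihood test with the mouse as a block, Benjamini-Hochberg over 13917 genes), 2.64% passed an adjusted p of 0.05 and 1.35% passed and were higher without a contig. All 4 members were among the latter. The log2 fold changes were 2.88 ± 0.35 (SE, adjusted p = 0.015) for H2-Aa, 2.99 ± 0.34 (0.012) for H2-Ab1, 2.66 ± 0.28 (0.0092) for H2-Eb1 and 0.84 ± 0.15 (0.042) for Cd74, edgeR adjusted p-values in brackets. Without the block no gene passed, and the edgeR adjusted p was 0.56 for each class II gene and 0.92 for Cd74. DESeq2 called the 3 class II genes (adjusted p = 0.042, 0.028 and 0.013) but not Cd74 (0.83, adjusted p = 0.96), and edgeR with DESeq2 size factors gave Cd74 an adjusted p of 0.053. Of the 9 genes of the class II locus and loading list that are not members, 5 were higher (H2-Eb2, H2-Oa, H2-Ob, H2-DMb1 and Ifi30) and none lower, with a median log2 change of 1.03 against 0.00 over all genes. Of 13 class I genes 2 were lower, H2-K1 by 0.14 and H2-D1 by 0.13 on the log2 scale.

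These class II differences sat in few barcodes. Clusters were formed on variable genes without the 4 members and without receptor genes, and 1 small cluster was led by H2-Aa, H2-Ab1 and H2-Eb1 (99 and 116 barcodes, of which 32 and 61 were kept and 59 and 42 had no contig). It also carried haemoglobin, Tyrobp, Fcer1g, S100a9 and C1qb among its leading genes and was left unnamed. Without it and an erythroid gene cluster of 24 and 11 barcodes, the log2 fold changes fell to 0.16 ± 0.18 for H2-Aa, -0.12 ± 0.17 for H2-Ab1 and 0.16 ± 0.11 for H2-Eb1, with adjusted p = 0.71, 0.79 and 0.55 in edgeR. Cd74 was then lower without a contig, by 0.34 ± 0.03 on the log2 scale (edgeR adjusted p = 0.0059), where 1.06% of genes passed. Leaving this cluster out was chosen after its values were seen, and it removes barcodes rich in the members.

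In the class II-led cluster, barcodes without contig that also lacked C1qa and Lyz2 numbered 33 and 13. Their Cd74 level was 24547 and 28314 CPM and their H2-Aa level 11476 and 11370, close in the 2 mice. The dendritic cell list summed to 4865 and 4763 CPM in them, led by Cst3 (3939 and 3922) and Itgax, the CD11c integrin (379 and 243). In kept cells with 0 UMIs of C1qa and Lyz2 (marker-free kept cells from here on) outside the cluster, the dendritic list summed to 161 and 155 CPM, nearly all Cst3. The B cell list summed to 207 and 365 CPM, led by Ighm, with Cd79a, Ms4a1 and Pax5 at 0 UMIs in both mice. The T cell list summed to 2242 and 2037 CPM, against 8644 and 8562 in marker-free kept cells outside the cluster.

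The kept barcodes of the same cluster (32 and 61) differed in their T cell transcripts. Their T cell list reached 9023 and 8814 CPM, while their macrophage list summed to 4469 and 4400 CPM, led by Ctsb and the haem oxygenase Hmox1. Cd74 stood at 3524 and 2777 CPM in them, and H2-Aa at 1507 and 1009. T cell and macrophage transcripts thus shared barcodes with 1 productive TRB contig, and whether these were doublets was not tested.

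Over whole libraries the class II transcripts were concentrated in the same way. In mouse 1, 32 barcodes with at least 100 class II UMIs held 85.6% of all class II UMIs in barcodes past the filters, and in mouse 2, 12 barcodes held 64.6%. All 32 and all 12 belonged to the class II-led cluster, and 30 and 10 of them had no contig. Their Cd74 level was 24423 and 27845 CPM and their Cd3e level 233 and 305. At the other end, 9284 and 9051 barcodes had no class II UMI, and 28.7% and 27.9% of these still had a Cd74 UMI.

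**Figure D1:**
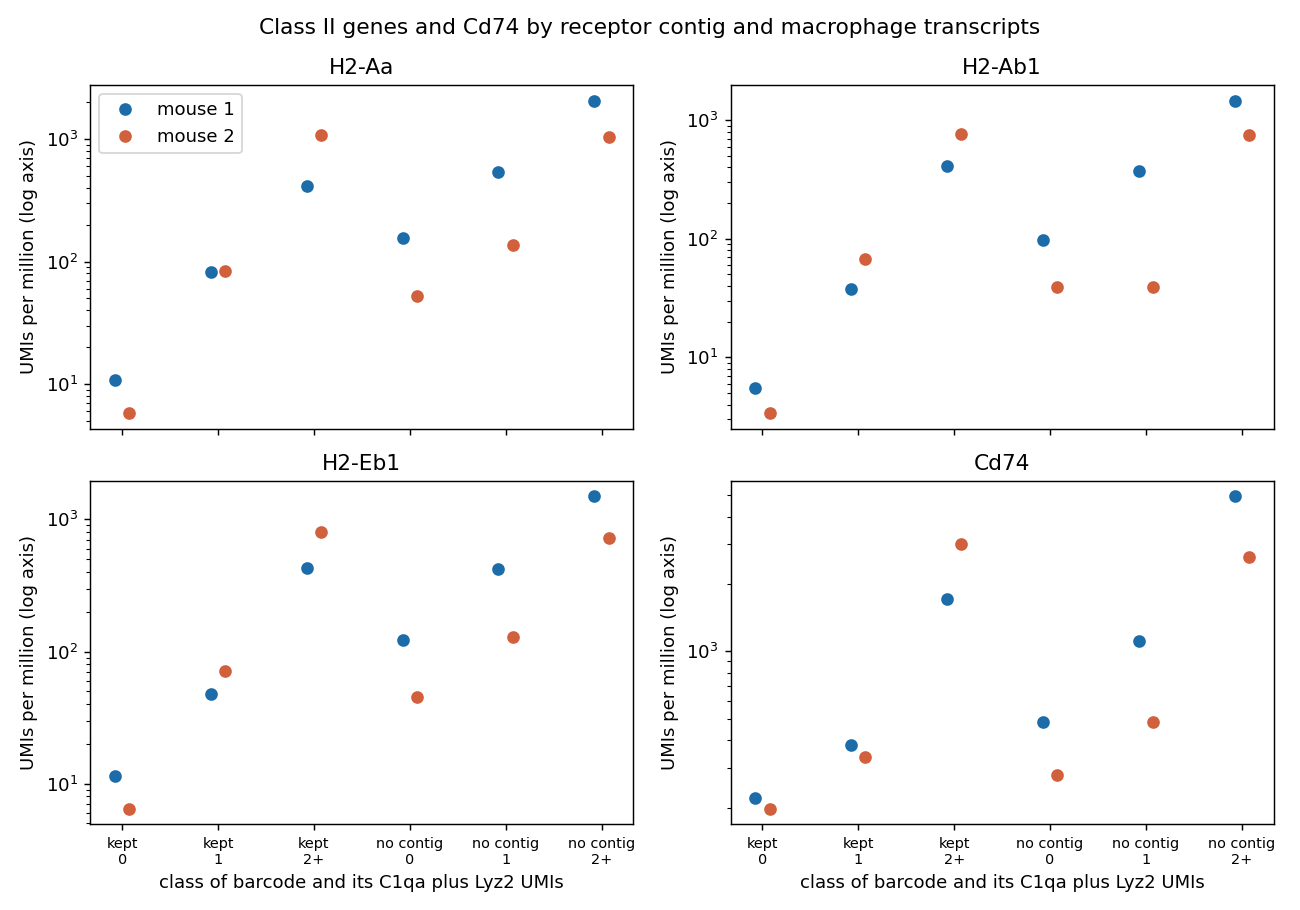
Level of each gene (CPM, log axis) in kept cells and in barcodes without contig, split by the sum of C1qa and Lyz2 UMIs (0, 1, 2 or more); each point is 1 mouse. Class II levels in kept cells rise from 3.40 to 11.3 CPM at 0 UMIs to between 413 and 1087 CPM at 2 or more.

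C1qa, a complement subunit made by tissue macrophages, and Lyz2, the macrophage lysozyme, were used to separate kept cells. A UMI of either was present in 65 of 5993 and 84 of 6332 kept cells. H2-Aa stood at 10.7 and 5.82 CPM in kept cells with 0 such UMIs and at 418 and 1087 in those with at least 2. H2-Ab1 went from 5.47 and 3.40 CPM to 413 and 771, and H2-Eb1 from 11.3 and 6.46 to 427 and 798. Cd74 went from 220 and 198 CPM to 1709 and 3002. For each member both levels at 2 or more, from 24 and 47 cells, lay above both levels at 0. The share of all genes that did so is not given here.

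Between kept cells with and without a C1qa or Lyz2 UMI, 4.28% of 12904 genes passed the edgeR test and 2.66% were higher with one, the 4 members among them. Macrophage transcripts set these classes, so a rise of other genes made by macrophages follows from the choice. The log2 fold change was 5.72 ± 0.15 (SE) for H2-Aa, 6.23 ± 0.17 for H2-Ab1, 5.31 ± 0.16 for H2-Eb1 and 2.71 ± 0.09 for Cd74. In mouse 1 and mouse 2 it was 4.3 and 6.9 for H2-Aa and 5.0 and 7.2 for H2-Ab1. It was 4.1 and 6.3 for H2-Eb1 and 2.0 and 3.3 for Cd74. The mice thus lay further apart than the SE, which took the spread as common to all genes. Ciita was also higher (log2 3.98, edgeR adjusted p = 0.00013; 11.5 and 13.4 against 0.657 and 0.911 CPM), as were March1, the ubiquitin ligase that turns class II over (3.78, adjusted p = 0.029), and Irf8 (1.25). Cxcr4 was lower by 2.10. Each class II gene thus moved further than Cd74 across the same cells.

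The ratio of Cd74 to class II UMIs differed between these kinds of barcode and is given without a test. Barcodes without contig and with at least 2 C1qa and Lyz2 UMIs gave 0.980 and 1.04 Cd74 UMIs per class II UMI (Cd74 was 49.5% of the UMIs of the 4 genes, exact binomial 95% interval 47.5 to 51.4, and 51.1%, 48.4 to 53.7). The class II-led cluster without contig gave 0.892 and 0.987, and its kept barcodes gave 0.942 and 1.10. These sums lay between 0.892 and 1.10 Cd74 UMIs per class II UMI.

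Marker-free kept cells (0 UMIs of C1qa and Lyz2) stood apart, at 7.99 and 12.6 Cd74 UMIs per class II UMI. Outside the class II-led cluster, 5921 and 6240 such cells gave 17.6 and 16.5. Cd74 made up 94.6% (94.1 to 95.1) and 94.3% (93.8 to 94.8) of the UMIs of the 4 genes there. These intervals cover counting error only. The cluster left out was recognised by its class II genes. Its 7 and 8 marker-free kept barcodes held 602 of 1052 and 174 of 692 class II UMIs of all such cells. Leaving them out had to raise the ratio.

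**Figure D2:**
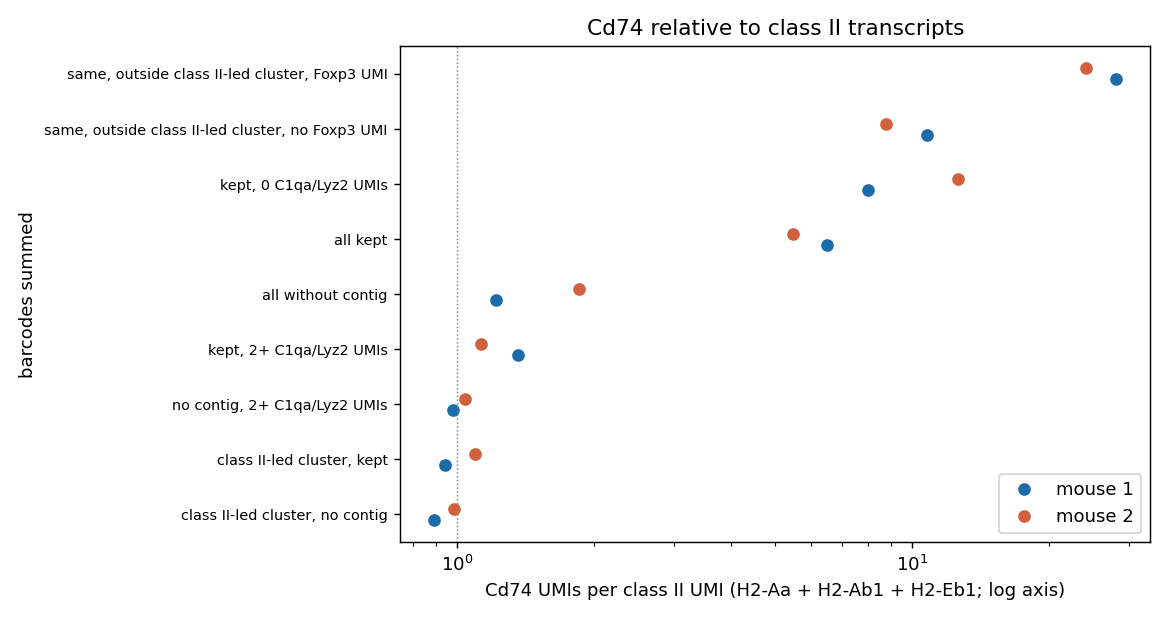
Cd74 UMIs per UMI of H2-Aa, H2-Ab1 and H2-Eb1 together (log axis) in sums of barcodes; each point is 1 mouse. The class II-led cluster and the barcodes with 2 or more C1qa and Lyz2 UMIs sit between 0.892 and 1.36, and marker-free cells with a Foxp3 UMI at 28.1 and 24.1.

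What remained in marker-free kept cells outside the cluster was mainly Cd74. Its level was 208 and 194 CPM, and 29.5% and 28.0% of cells had a UMI. H2-Aa stood at 4.14 and 4.47 CPM (1.77% and 1.89% of cells), H2-Ab1 at 2.52 and 2.25 (1.06% and 1.11%) and H2-Eb1 at 5.14 and 5.04 (2.16% and 2.39%). With the cluster left out the 2 mice differed by little for each member, while with it H2-Aa stood at 10.7 and 5.82 CPM. Barcodes without contig, filtered in the same way, gave 161 and 157 CPM for Cd74 and 4.95 and 3.69 for H2-Aa.

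Cd74 (ENSMUSG00000024610), at 60803848 to 60812652 of chromosome 18 on the plus strand, overlaps the microRNA gene Mir5107 on its own strand. Its level was unevenly spread over the T cell clusters, which are described without a test. Among marker-free kept cells the lowest level was in the cluster led by Ccl5 (Th1 effector-like by Ccl5, Ccl4 and Gzmk), at 12.3 and 13.8 CPM, with a UMI in 4.83% and 6.32% of cells. The Cx3cr1-led cluster followed at 21.2 and 11.4 CPM and the naive-like cluster (Igfbp4, Ly6c1, Dapl1, Ccr7) at 28.4 and 31.2. The Ccl5-led and Cx3cr1-led clusters overlapped between mice, and the naive-like cluster lay above both. At a finer clustering (Leiden 1.0) a cluster led by Cdc6 had the lowest mean, at 15.3 and 7.82 CPM, and the Ccl5-led one was the third lowest, at 12.9 and 14.7.

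A middle group of 7 clusters ran from 45.7 to 185 CPM. The proliferating-like cluster (Pclaf, Birc5, Ube2c and others) stood at 127 and 129 CPM. The Crtam-led cluster reached 185 and 122 CPM, and the Rasgef1b-led one stood at 45.7 and 83.3. Neighbours in this order overlapped between mice, apart from the Sostdc1-led cluster (131 and 89.9), which lay just above the Ifitm1-led one (65.3 and 88.3).

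The Treg-like cluster (led by Rln3, Foxp3 and Itgae, with Il2ra) stood above all others, at 962 and 817 CPM, and 84.6% and 82.8% of its cells had a Cd74 UMI. With each cell thinned to 2000 UMIs, which left out 17 and 3 cells, the share was 68.8% and 64.0%, against 2.04% and 2.31% in the Ccl5-led cluster (29 and 7 left out). H2-Eb1 was also highest there among the T cell clusters, at 19.5 and 17.0 CPM against 0.668 to 7.75 in the others. The ratio of Cd74 to class II UMIs was 29.1 and 29.6 in the Treg-like cluster, 1.83 and 1.96 in the Ccl5-led and 1.97 and 1.27 in the Cx3cr1-led one.

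**Figure D3:**
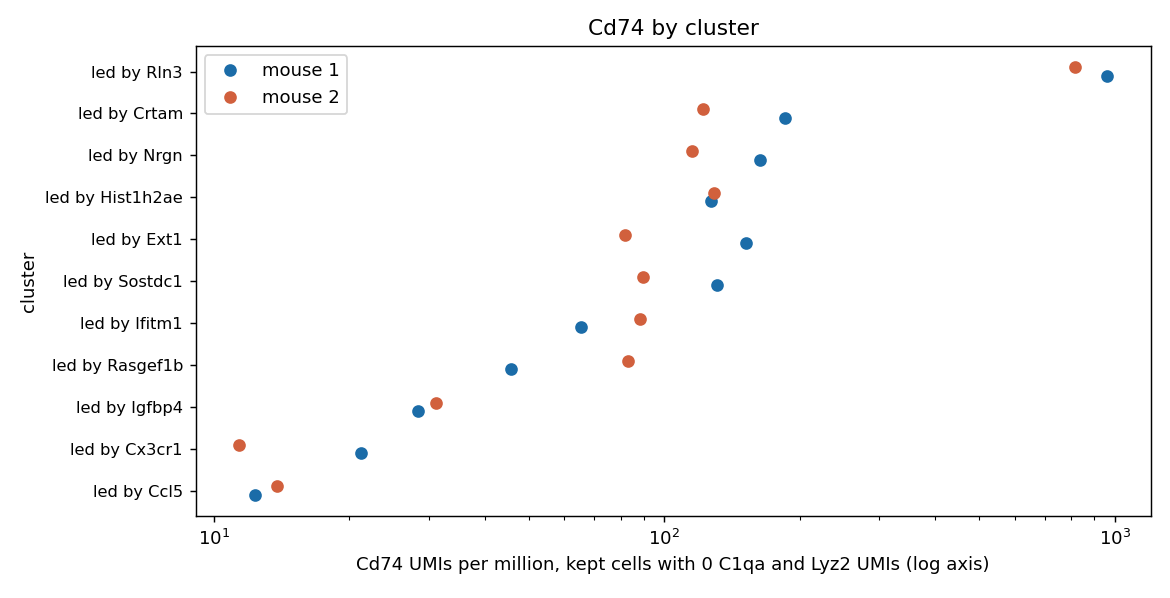
Cd74 level (CPM, log axis) in each cluster of kept cells with 0 C1qa and Lyz2 UMIs, labelled by leading gene; each point is 1 mouse. The cluster led by Rln3 and Foxp3 sits at 962 and 817 CPM, the one led by Ccl5 at 12.3 and 13.8.

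Foxp3, the lineage factor of regulatory T cells, gave a split that uses no cluster. A Foxp3 UMI was present in 906 of 5928 and 1135 of 6248 marker-free kept cells. Cd74 stood at 708 and 694 CPM in them and at 110 and 69.4 in the 5022 and 5113 others. Outside the class II-led cluster, which held none of the Foxp3 cells, the others stood at 94.7 and 64.5 CPM.

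The share of cells with a Cd74 UMI was 77.7% and 79.2% with a Foxp3 UMI and 20.7% and 16.6% without. At 2000 UMIs per cell it was 58.5% (exact 95% interval 55.2 to 61.8) and 59.6% (56.6 to 62.4) against 11.4% (10.6 to 12.4) and 8.14% (7.40 to 8.93), with 12 and 5 Foxp3 cells and 143 and 66 others left out. Cells with a Foxp3 UMI were 15.3% and 18.2% of cells outside the cluster and held 62.8% and 73.6% of the Cd74 UMIs.

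In the fit across 13006 genes, 42.6% passed in either direction (edgeR, mouse as a block). The log2 fold change of Cd74 was 3.00 ± 0.06 (SE), 2.65 in mouse 1 and 3.30 in mouse 2. Its adjusted p fell below the smallest number the software holds, because that fit pooled the spread of all genes. Without the block Cd74 changed by 2.97 ± 0.20 (edgeR adjusted p = 3.4e-05), and DESeq2 gave 3.01 ± 0.32 (adjusted p = 4.4e-19).

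Class II genes behaved differently from one another in this split. H2-Eb1 stood at 13.9 and 15.7 CPM with a Foxp3 UMI and at 10.7 and 4.08 without, a log2 fold change of 1.13 ± 0.15 (edgeR adjusted p = 4.3e-13) that was not called without the block (1.01, adjusted p = 0.11) or by DESeq2 (1.17, adjusted p = 0.33). H2-Aa (7.25 and 9.07 against 11.5 and 4.99 CPM) and H2-Ab1 (3.98 and 4.09 against 5.81 and 3.22) went opposite ways in the 2 mice, with log2 fold changes of 0.11 and -0.10 and edgeR adjusted p = 0.66 and 0.79. The cells without Foxp3 included 7 and 8 barcodes of the class II-led cluster.

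With those barcodes left out, 42.7% of 12993 genes passed and 22.2% were higher with Foxp3, all 4 members among them. The cells without Foxp3 then stood at 3.44 and 3.28 CPM for H2-Aa, 2.19 and 1.77 for H2-Ab1 and 3.15 and 2.28 for H2-Eb1. The log2 fold changes were 1.29 ± 0.21 (edgeR adjusted p = 3.5e-09), 1.04 ± 0.28 (0.00070) and 2.47 ± 0.18 (1.3e-40), and 3.16 ± 0.06 for Cd74. The removed barcodes were in a cluster recognised by its class II genes, and all lay on the side without Foxp3. Class II levels on that side had to fall, so these class II p-values are no independent test. The class II result thus turned on 7 and 8 barcodes, and that of Cd74 did not.

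Cd74 was higher in cells with 1 Foxp3 UMI than with 0, and higher again with 2, in both mice, while from 2 to at least 3 it went up in mouse 2 only. These levels by UMI number are given without a test. In mouse 1 it stood at 94.7, 390, 853 and 756 CPM at 0, 1, 2 and at least 3 Foxp3 UMIs, and in mouse 2 at 64.5, 455, 611 and 751. H2-Eb1 went from 3.15 and 2.28 CPM at 0 to 16.9 and 17.7 at 3 or more. Median depth was 5509 and 6152 UMIs at 0 Foxp3 UMIs and 6940 and 6926 at 3 or more.

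**Figure D4:**
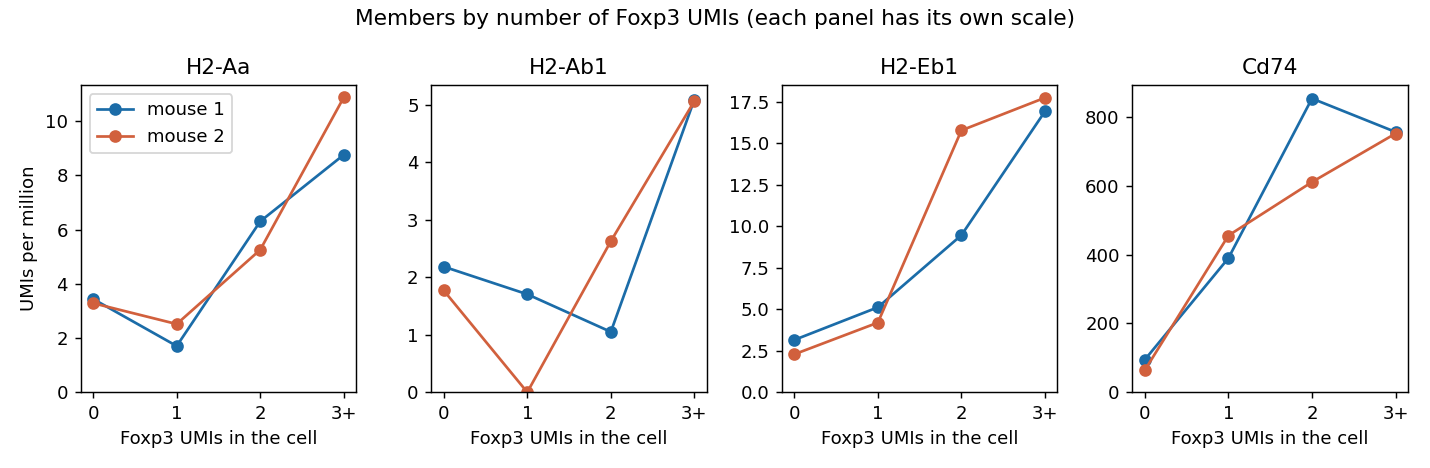
Level of each gene (CPM, linear axes that differ between panels) in kept cells outside the class II-led cluster with 0 C1qa and Lyz2 UMIs, by the number of Foxp3 UMIs in the cell; each line is 1 mouse. Cd74 stands at 94.7 and 64.5 CPM at 0 and at 756 and 751 at 3 or more.

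Markers of antigen-presenting cells were low in the Foxp3 cells except for a few genes. The macrophage list summed to 713 and 670 CPM with a Foxp3 UMI and to 545 and 502 without, nearly all of it the lysosomal protease Ctsb (672 and 624 against 500.2 and 460). Of 18 macrophage genes 7 in mouse 1 and 3 in mouse 2 were at 0 UMIs in the Foxp3 cells, C1qa and Lyz2 by choice. The dendritic list summed to 181 and 192 CPM against 156 and 146, with Flt3, Xcr1, Clec9a, Siglech, Clec10a and Ccl22 at 0 in both mice. The B cell list summed to 551 and 604 CPM against 80.9 and 93.4, nearly all Ighm (531 and 578 against 72.7 and 84.8), while Ms4a1, Pax5, Ebf1 and Ly6d were at 0 in both mice.

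Other genes of the pathway were counted from lists in the Foxp3 fit that included the class II-led cluster. Of 8 tested genes of the class II locus and loading other than the members, 4 were higher in Foxp3 cells (H2-Ob, H2-DMa, Ctss and Lgmn) and none lower, with a median log2 change of 0.46 against -0.01 over all genes. Lgmn, a lysosomal asparaginyl protease that processes antigen, changed by 3.75 ± 0.14 (28.3 and 44.2 against 2.74 and 2.63 CPM). Ctss, the protease that trims the invariant chain, changed by 0.77 ± 0.06 (267 and 262 against 158 and 153 CPM). H2-DMa, a chain of the peptide exchange factor, changed by 0.26 ± 0.07.

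Of 8 genes of class II transcription, 2 were higher in Foxp3 cells. Ciita changed by 1.64 ± 0.46 (edgeR adjusted p = 0.0012) but stayed low, at 1.86 and 1.67 against 0.387 and 0.716 CPM, where the kept part of the class II-led cluster held 29.5 and 37.0. Rfx5 changed by 0.46 ± 0.12. Among 5 tested genes of Cd74 ligands, co-receptors and processing, Ddt, a relative of Mif, rose by 0.45 and the protease Sppl2a by 0.24, and the co-receptors Cd44 and Cxcr4 fell by 1.08 and 1.52 on the log2 scale.

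Class I and interferon gamma lists stood beside these. Of 13 class I genes 10 were higher and 1 lower in Foxp3 cells, among them the peptide transporter Tap1 (0.54), H2-Q7 (0.35) and H2-K1 (0.20), with Nlrc5, the class I transactivator, lower by 0.29. Of 10 tested interferon gamma response genes 7 were higher and 1 lower. Irf8 changed by 2.08 ± 0.06 (144 and 158 against 35.2 and 36.4 CPM) and the GTPase Gbp7 by 1.16, and the chemokine Cxcl10 fell by 0.71. With 42.6% of all genes passing, such counts are descriptions.

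Cells with a Vβ3 receptor (TRBV26), named in the title of the study, were compared with all others. Among marker-free kept cells 2056 and 1940 used Vβ3 and 3872 and 4308 did not. Cd74 stood at 199 and 197 CPM with Vβ3 and at 230 and 198 without. The log2 fold change was -0.10 ± 0.04 (edgeR adjusted p = 0.10, with 20.5% of 12926 genes passing), and -0.14 ± 0.04 (edgeR adjusted p = 0.018, with 22.6% passing) outside the class II-led cluster. No class II gene passed in either fit, at log2 fold changes of 0.07 for H2-Aa, 0.32 for H2-Ab1 and 0.23 for H2-Eb1 in the first and -0.49, 0.16 and -0.43 in the second. Thinning every cell to 2000 UMIs gave Cd74 -0.30 (edgeR adjusted p = 2.5e-07). With 1 cell drawn per clonotype, in a single random draw, all 4 were lower with Vβ3, Cd74 by 0.55 and H2-Aa by 1.85 on the log2 scale. Like the thinned fit, it included the class II-led cluster. The share of all genes that were lower in it is not given here.

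The Vβ3 classes differed in their share of Foxp3 cells, which moved with this result. Outside the cluster 8.48% and 13.1% of Vβ3 cells had a Foxp3 UMI, against 18.9% and 20.5% of the others. Among cells with no Foxp3 UMI, Cd74 stood at 105 and 83.2 CPM with Vβ3 and at 89.3 and 55.8 without, and among Foxp3 cells at 753 and 751 against 697 and 675. In the fit on marker-free kept cells with no Foxp3 UMI, the class II-led cluster included (128 and 83.2 against 99.6 and 63.0 CPM), Cd74 was higher with Vβ3 by 0.37 ± 0.05 on the log2 scale (edgeR adjusted p = 3.3e-06), and 21.3% of 12505 genes passed. The direction between Vβ3 and other cells thus turned with the Foxp3 cells left out, a split added after the values were seen.

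**Figure D5:**
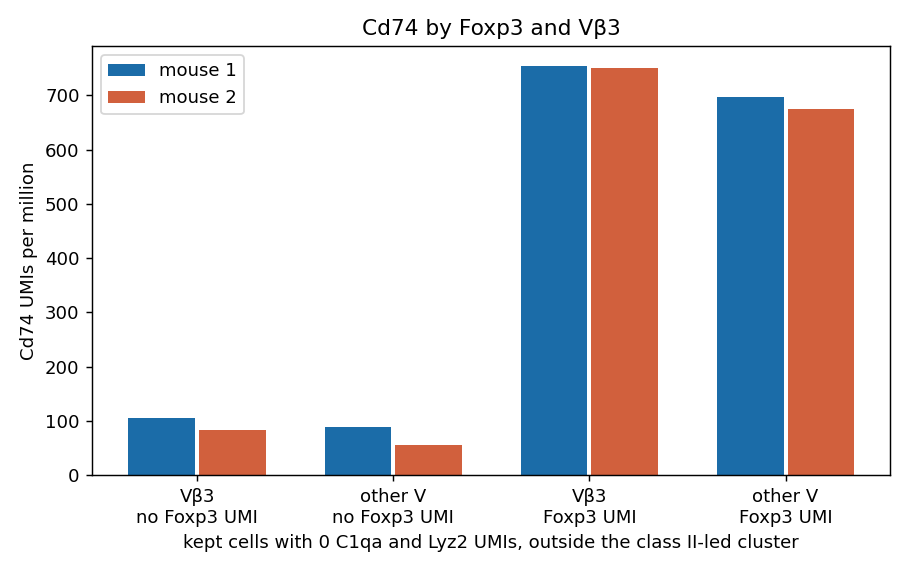
Cd74 level (CPM, bars from 0) in kept cells with 0 C1qa and Lyz2 UMIs outside the class II-led cluster, by Vβ3 use and Foxp3 UMI; each bar is 1 mouse. All bars with a Foxp3 UMI lie between 675 and 753 CPM and all without between 55.8 and 105.

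Over 12 V genes with at least 100 such cells in each mouse, the level of Cd74 and the share of Foxp3 cells were set side by side. In mouse 1 the highest level was in TRBV5 cells, at 428 CPM with 50.6% Foxp3 cells, and the lowest in TRBV31 cells, at 52.6 CPM with 4.02%. In mouse 2 TRBV5 stood at 162 CPM with 24.5% and TRBV31 at 175 CPM with 21.9%. The lowest level in mouse 2 was in TRBV13-3, at 54.7 CPM with 8.11%. V gene order therefore differed between the mice.

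Clonal expansion was compared next, a clonotype being a shared TRBV, TRBJ and TRB CDR3 nucleotide sequence within a mouse. Cd74 stood at 223 and 189 CPM in cells of clonotypes with at least 2 cells and at 216 and 209 in single cells. The log2 fold change was -0.04 ± 0.06 (edgeR adjusted p = 0.65, with 22.0% of 13080 genes passing). With 1 cell drawn per clonotype it was 0.40 (edgeR adjusted p = 1.7e-07), the opposite direction, and all 3 class II genes were higher too. That fit rested on a single random draw and included the class II-led cluster. The share of all genes that were higher in it is not given here. In the first fit no class II gene passed, and each was higher in expanded cells in mouse 1 and lower in mouse 2.

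Outside the class II-led cluster 27.6% of genes passed, and Cd74 was lower in expanded cells by 0.12 ± 0.04 (edgeR adjusted p = 0.047) and H2-Eb1 by 0.54 ± 0.20 (adjusted p = 0.042). Large clonotypes, of at least 30 cells, numbered 12 and 13. The share of their cells with a Cd74 UMI ran from 4.08% to 32.2% with a median of 9.29% in mouse 1, and from 1.75% to 26.7% with a median of 6.33% in mouse 2. At most 3.33% of the cells of any of them had a Foxp3 UMI.

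Cycling cells, with a UMI of Mki67 or Top2a, had nearly the same Cd74 level as others, at 215 and 195 CPM against 223 and 199. The log2 fold change was -0.01 ± 0.04 (edgeR adjusted p = 0.90). The classes differed in their Foxp3 cells. Outside the class II-led cluster 19.9% and 20.1% of cycling cells had a Foxp3 UMI, against 13.5% and 17.4% of the others. Among Foxp3 cells there, Cd74 averaged 585 CPM over the mice in cycling cells and 811 in the others. The near-equal Cd74 level thus covers classes of unlike make-up. Over 12977 genes 36.2% passed and 20.5% were higher in cycling cells, the 3 class II genes among them. H2-Aa stood at 19.9 and 7.91 CPM against 4.82 and 4.57 (log2 fold change 2.05 in mouse 1 and 0.80 in mouse 2, edgeR adjusted p = 0.00050). H2-Ab1 changed by 1.10 (edgeR adjusted p = 0.017) and H2-Eb1 by 0.94 (0.041), the latter by 1.78 in mouse 1 and -0.13 in mouse 2. DESeq2 called none of the 3 (adjusted p = 0.070, 0.10 and 0.62), and without the block H2-Aa alone passed (edgeR adjusted p = 0.032).

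Outside the class II-led cluster, which held 4 and 5 of the cycling cells, 37.2% of genes passed and none of the 3 class II genes did, at log2 fold changes of 0.02 for H2-Aa, -0.12 for H2-Ab1 and -0.36 for H2-Eb1 (edgeR adjusted p = 0.96, 0.73 and 0.10). List genes were read from the first fit, with the cluster included. There the thiol reductase Ifi30 changed by 0.81 and Lgmn by 1.13 in cycling cells, and Ctss fell by 0.44. Mif, the ligand of Cd74, changed by 0.47 in that fit (517 and 436 against 367 and 336 CPM).

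The genes most like Cd74 were taken by Pearson correlation of log2(CPM + 1) over cluster sums of at least 50 cells in each mouse. Over 22 sums of marker-free kept cells they were Ctsz (r = 0.88), Ergic1 (0.85), Axl (0.83), Matk (0.82) and Il1r2 (0.82) of 9037 genes. The class II genes followed Cd74 less closely in the same sums, at r = 0.19 for H2-Aa, 0.36 for H2-Ab1 and 0.51 for H2-Eb1. Over 24 sums of all barcodes past the filters, which include the class II-led cluster, those values were 0.82, 0.84 and 0.88. There the class II genes stood at r from 0.97 to 0.98 with one another, and outside the members the most like gene was Mgst1 for H2-Aa (0.98), Batf3 for H2-Ab1 (0.97) and Rgl1 for H2-Eb1 (0.97). Sums of 1 mouse share a library, and clusters share the genes that formed them, so these are descriptions.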

How the data were processed

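The study deposited 4 samples, a gene expression and a receptor library for each of 2 mice. The gene expression files hold UMI counts per gene and barcode, made by the authors with Cell Ranger 7.0.1 on mm10, per the submitters' processing notes; counting by strand is not given in the sources used here. The receptor files give the contigs per barcode. Totals of 70092822 and 75940181 UMIs set the depth.

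Barcodes with at least 500 genes and at most 10% mitochondrial UMIs were classed by productive TRB contigs. Clusters (scanpy 1.11.5: 2000 variable genes without the members and receptor genes, 30 components, 15 neighbours, Leiden 0.6) were named from marker lists where at least 3 markers led. Each class of each mouse was summed, so a comparison has 4 sums, and these were tested with edgeR 4.0.16 (quasi-likelihood, TMM, filterByExpr, mouse as a block, Benjamini-Hochberg over all genes, threshold 0.05). The block is the mouse that gave both sums. Genes that set a class and 259 receptor segment genes were left out. CPM values of pathway genes other than the members are over the tested table's library sizes. In the Foxp3 and the C1qa and Lyz2 fits the spread was taken as common to all genes, which makes p-values very small. DESeq2 1.42.0 and the other alternatives changed 1 choice at a time, except that the stricter filter on barcodes (1000 genes, 5% mitochondrial UMIs) changed both limits together. The fit was checked on simulated counts. Intervals are exact binomial (95%) and cover counting error only.

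Named pathway genes were, per list and comparison, the 2 largest and 2 smallest log2 fold changes of called genes whose direction both mice shared. Members and lists were chosen with earlier results of these data known. Barcodes with 2 TRB contigs, alpha contigs only or failing the filters entered no comparison.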

Additional observations from a re-analysis of the deposited data

Results flagged for a closer look

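Barcodes that entered no comparison also carried Cd74 and class II UMIs, above the 3 UMIs that a count of 0 allows. Barcodes with 2 TRB contigs held 1207 Cd74 and 158 class II UMIs in mouse 1 and 1116 and 229 in mouse 2, or 7.64 and 4.87 Cd74 UMIs per class II UMI. Barcodes with an alpha contig only held 419 and 25 in mouse 1 and 321 and 12 in mouse 2, ratios of 16.8 and 26.8. Barcodes that failed the gene or mitochondrial filter held 57 Cd74 and 62 class II UMIs in mouse 1 and 18 and 13 in mouse 2, ratios of 0.919 and 1.38. None of these kinds was filtered on C1qa and Lyz2, and all kept cells without that filter gave 6.50 and 5.46. Barcodes with 2 TRB contigs lay on either side of these values, and those with an alpha contig only lay above both. The failed barcodes lay near the class II-led cluster, on only 62 and 13 class II UMIs.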

How the results depend on the processing

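Folds of Cd74, counts of genes, the ratio, the shares and the cluster levels were followed together. For these, 97 settings were classed as the same and 30 as moving a value or count. Only folds have a direction and a threshold, so for the others the same means a value or count near the main one. Settings without either replicate were judged against the spread of the mice themselves. For the ratio, the shares and the cluster levels they could then only be the same, and folds had the same wide margin. The tally is therefore no measure of stability across mice. A call was gained in 9 and lost in 3, and 6 turned the direction. Folds of the 3 class II genes were counted apart, with the same limit. For them 148 settings stayed the same, 14 gained a call, 16 lost one and 23 turned the direction. For genes without a contig, 368 genes passed, and 0 passed without the replicate block (628 at an unadjusted p under 0.05), 1323 without a filter on low counts, 110 by DESeq2, 804 at 1000 genes and 5% mitochondrial UMIs, 603 with 0 C1qa and Lyz2 UMIs and 145 without the class II-led and erythroid clusters. Cd74 there changed by 0.84, and by 0.89 without the replicate block, 0.83 with DESeq2 size factors, 0.83 by DESeq2 and -0.34 without the clusters, where H2-Ab1 stood at -0.12. Without either replicate Cd74 ranged from 0.43 to 1.20.

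Without the replicate block, 277 genes passed for C1qa and Lyz2 (552 with it), 269 for Vβ3 (2653), 3100 for Foxp3 (5545), 684 for expanded clonotypes (2876) and 2020 for cycling cells (4696). DESeq2 called 229, 663, 2598, 970 and 2095. Thinning to 2000 UMIs gave 154, 1602, 3503 and 1947 for C1qa and Lyz2, Vβ3, Foxp3 and cycling cells. Cells with 0 UMIs of every macrophage and B marker and class II gene (only 15 and 12 Foxp3 cells) gave 340 for Vβ3, 110 for Foxp3, 622 for expanded and 184 for cycling cells, and 1 cell per clonotype gave 1468 for expanded clonotypes.

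For Vβ3, Cd74 (-0.10) stood at -0.12 without a filter on low counts, -0.30 thinned, -0.16 in all kept cells, -0.55 with 1 cell per clonotype, -0.14 without the cluster and 0.37 in cells with 0 Foxp3 UMIs. H2-Aa (0.07) stood at -0.22 by DESeq2, -0.33 thinned, -0.24 in all kept cells, -1.85 with 1 cell per clonotype and -0.49 without the cluster. H2-Ab1 (0.32) stood at -0.24 in all kept cells and -1.05 with 1 cell per clonotype. H2-Eb1 (0.23) stood at -0.30 thinned, -0.15 in all kept cells, -1.45 with 1 cell per clonotype and -0.43 without the cluster.

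For Foxp3, H2-Aa (0.11) stood at -0.0013 without the replicate block and -0.74 in all kept cells. H2-Ab1 (-0.10) stood at 0.39 with 1 cell per clonotype, 1.04 without the cluster and 0.10 at 2 or more Foxp3 UMIs. For expanded clonotypes, Cd74 (-0.04) stood at -0.14 thinned, 0.018 in all kept cells, -0.69 with 0 UMIs of every marker, 0.40 with 1 cell per clonotype, -0.12 without the cluster and -0.21 with 0 Foxp3 UMIs. Without the cluster H2-Aa stood at -0.083, H2-Ab1 at -0.32 and H2-Eb1 at -0.54. For cycling cells, Cd74 (-0.01) stood at 0.078 in all kept cells and 0.018 with 1 cell per clonotype, and from -0.026 to -0.0081 without either replicate. H2-Ab1 stood at -0.12 and H2-Eb1 at -0.36 without the cluster, and H2-Eb1 ranged from -0.13 to 1.78 without either replicate.

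The ratio of Cd74 to class II UMIs (mean of the mice) was 14.1 with 0 UMIs of every macrophage and B marker, from 21.5 in mouse 1 and 6.71 in mouse 2 on only 6 and 14 class II UMIs, the shares at 4000 UMIs were 71.6% with Foxp3 and 14.8% without, and the lowest cluster level at Leiden 1.0 was 11.6 CPM, in a cluster led by Cdc6 and not by Ccl5. The cause of these moves was not tested. With 1 mouse left out no count of genes passing could be fitted, since no residual degrees of freedom remain. Class II levels near 2 to 5 CPM rest on few UMIs, so depth limits their folds.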

Other observations

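The 7 and 8 kept barcodes of the class II-led cluster without C1qa or Lyz2 UMIs held 602 of 1052 and 174 of 692 class II UMIs of marker-free kept cells. Their Cd74 level was 9620 and 2697 CPM, and their ratio of Cd74 to class II UMIs was 0.789 and 1.03.

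Barcodes without contig in the Treg-like cluster, with 0 C1qa and Lyz2 UMIs, numbered 323 and 379. Their Cd74 level was 596 and 522 CPM, below the 962 and 817 CPM of kept cells of that cluster in both mice, and their H2-Eb1 level was 16.3 and 19.4 CPM. Cells of the erythroid gene cluster (24 and 11 barcodes) held 3 and 9 Cd74 UMIs and 9 and 8 class II UMIs.

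Among Foxp3 cells outside the class II-led cluster, cycling ones had less Cd74 than the others, at 557 and 612 against 861 and 761 CPM. This difference was not tested. At a clustering resolution of 1.0, a second cluster, led by Lgmn, also stood high in Cd74, at 485 and 420 CPM. It was Treg-like too, with Itgae, Foxp3, Il2ra and Ikzf4 among its leading genes. Its level lay below that of the Rln3-led cluster, which also carried Foxp3 and stood at 1053 and 906 CPM.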
